A study of Homo sapiens with 6 samples.

Results

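The EGF receptor family and its ligands were examined in MUG-Chor1, a cell line derived from a sacrococcygeal chordoma, in which large physaliferous cells (cells filled with vacuoles) and small non-vacuolated cells occur side by side. The genes were named by symbol, namely the receptors *EGFR*, *ERBB2*, *ERBB3* and *ERBB4* and the ligands *TGFA*, *EGF*, *AREG*, *EREG*, *HBEGF* and *BTC*. For each gene the Affymetrix probe set with exactly that symbol and the highest mean over the 6 arrays was used. This gave 9 of the 10 genes, 4 receptors and 5 ligands, among 18404 genes with a probe set of their own. *AREG* (amphiregulin) had no probe set under its symbol in the annotation used here and was not analysed.

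Each of the 6 arrays (Affymetrix Human Gene ST) held amplified cDNA of 1 pool of 20 cells picked by micromanipulation after trypsinization. There were 3 pools of large physaliferous cells (pools 2, 3 and 4) and 3 pools of small non-vacuolated cells (pools 5, 6 and 7), while the methods speak of picking in quadruplicate. All came from the same cell line grown in medium with serum, with the same supplements and no drug treatment described. Both phenotypes thus share their origin and culture conditions, and 1 cell line stands for the tumor. By array-CGH the paper found no obvious copy number differences between the phenotypes. A few small changes found in large cells were only a trend in small cells. Whether the pools were taken from independent cultures is not stated, and p-values therefore cover only the spread among these pools. A lower level can stem, among other sources, from fewer cells with the transcript in a pool or from less of the transcript per cell. These cannot be told apart.

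Receptors of this family are tyrosine kinases that pair with one another after a ligand has bound outside the cell. The ligands are made as membrane proteins and are cut free by sheddases of the ADAM family. EGF, TGF-alpha and amphiregulin bind EGFR, while HB-EGF, betacellulin and epiregulin bind both EGFR and ERBB4. ERBB2 has no known ligand and acts as a partner, and ERBB3 has a weak kinase and binds neuregulins. EGFR protein and its activation are well known in chordoma.

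Values are given as log2 expression, a scale on which 1 unit is a doubling of signal. An expression floor of 6.64, the log2 of a signal of 100, was used as a guide to values near background. Array medians lay between 6.64 and 6.68 in large pools and between 6.73 and 6.76 in small pools, and over all genes the median log2 fold change of large over small was -0.11, with 66.4% of genes lower in large cells. Pairs of arrays correlated at 0.914 to 0.929 among large pools, at 0.896 to 0.899 among small pools and at 0.899 to 0.916 between phenotypes. The chordoma marker brachyury (*TBXT*) was at 10.37, 10.31 and 10.39 in large pools, against 10.37, 10.17 and 10.34 in small pools, and 8 of 8 chordoma markers were above the floor in every array. Among 8 fibroblast markers 4 were above the floor in every array, and their summed signal was 1300 to 1790 in large pools, against 1930 to 2260 in small pools. For 7 immune and endothelial markers the summed signal was 746 to 984 in large pools and 680 to 854 in small pools, and *PTPRC*, *PECAM1*, *VWF* and *CDH5* were below the floor in every array. Of the other 3, *CD68*, a lysosomal protein of macrophages that other cells also make, was above it in 6 arrays and had a difference of 0.60 on the log2 scale (limma, adjusted p = 0.33), *CD14* in 4 arrays with -0.19 and *CD3E* in 1 array with 0.09. The part of these markers in the results was not tested.

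No member of the family passed the thresholds of the methods between the phenotypes. These were an adjusted p under 0.05 from limma together with a log2 fold change beyond 1 in either direction, and 0 of 9 members and 0% of the 18404 genes met both. The study applied them after removing genes that were not expressed or did not change, a filter not used in this fit. With that filter the paper reports *ALG11*, *UCHL3*, *TMEM144* and *PPP2CB* as differentially expressed on its arrays. The limits of the filter are not stated. With 1 choice of limits the fit here gave 2 genes, *SNORD59B* and *ZNF814*, which are not those of the paper. In the fit without a filter there were also 0 of 9 members at an unadjusted p under 0.05. Over all genes 4.33% were higher and 10.5% lower in large cells at that p. All 9 log2 fold changes were within 0.5 of zero, 3 above and 6 below it, with a median of -0.03 beside -0.11 over all genes. This balance moved with the scaling of the arrays, to 4 above and 5 below after a further quantile normalization, 6 above and 3 below with each array centred on its median, and 5 above and 4 below after removal of each array's signal trend (the smooth dependence of its deviations on the level of the genes). The 95% confidence interval held zero for all 9 members and stayed within 1 log2 unit of zero for 8 of them, the exception being *HBEGF*. With 3 pools on each side an exact two-sided permutation test cannot reach a p below 0.1.

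**Figure D1:**
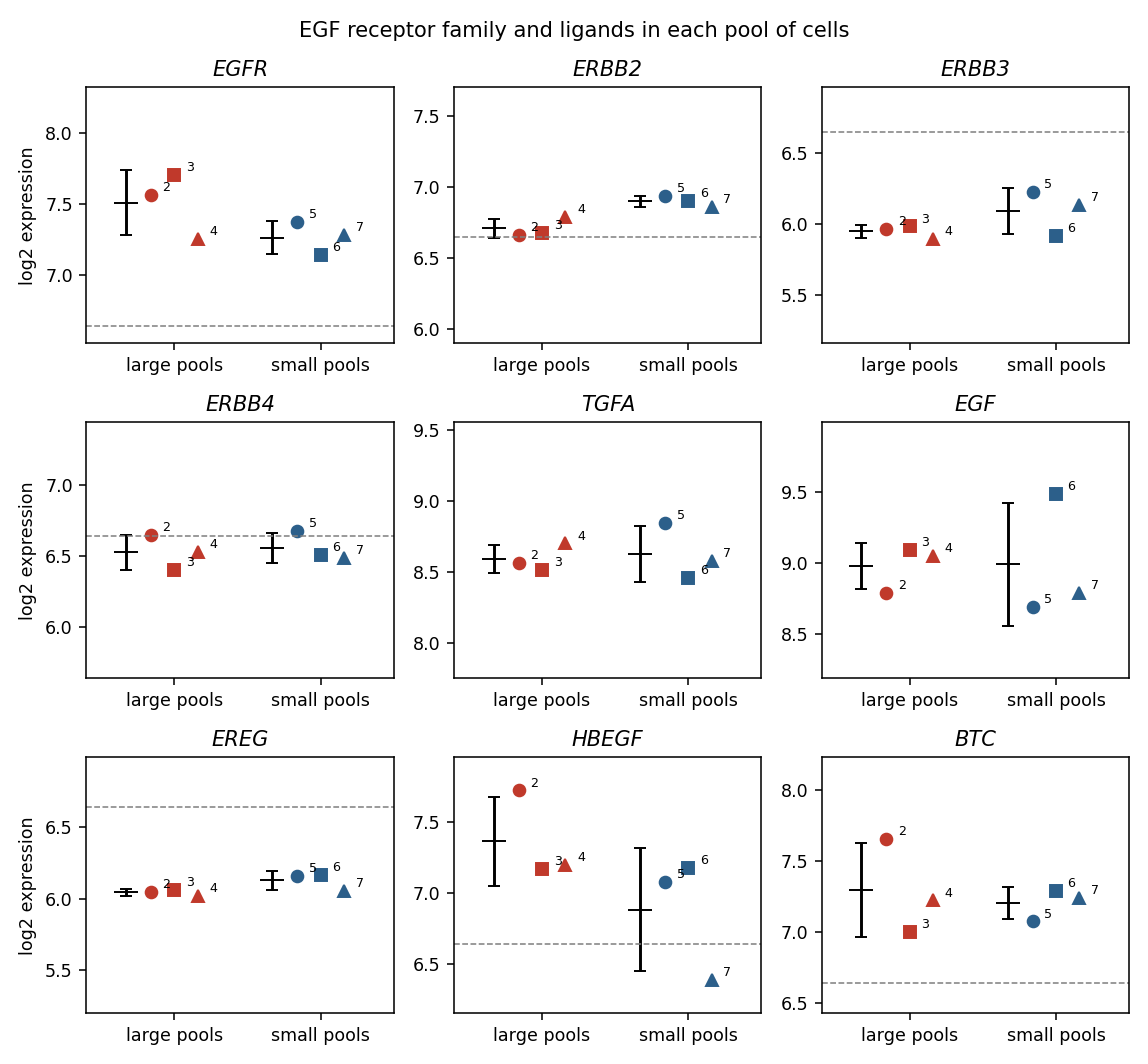
Log2 expression (vertical axis, 1.8 units in every panel) of 9 members in each pool of large (red) and small (blue) cells, with pool numbers; black bars are means and SDs (n = 3 pools) and dashed lines the expression floor of 6.64. Only for *ERBB2* do all large pools lie on one side of all small pools, and *HBEGF* and *EGF* have single pools far from the others of their phenotype.

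*EGFR*, a receptor for all of these ligands (probe set 8132860, chromosome 7), was above the floor in all 6 pools. Its log2 expression was 7.57, 7.71 and 7.26 in large pools 2, 3 and 4, against 7.37, 7.14 and 7.28 in small pools 5, 6 and 7. Large pools 2 and 3 were the highest of the 6, whereas large pool 4 lay among the small pools. The means were 7.51 ± 0.23 in large and 7.27 ± 0.12 in small cells (SD, n = 3 pools each). This is a log2 fold change of 0.25 (standard error, SE, 0.15, interval -0.11 to 0.60), or a ratio of 1.19 with an interval of 0.927 to 1.52. The adjusted p from limma was 0.41. With the deposited scaling the difference was thus not beyond the spread between pools, and a ratio above 1.52 lay outside its interval. After removal of the signal trend the interval reached 0.75 on the log2 scale.
The value depended on single large pools. Without large pool 4 the log2 fold change was 0.37 (interval 0.05 to 0.69, adjusted p = 0.38 from limma), and without large pool 3 it was 0.15.

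*ERBB2*, the partner receptor with no ligand of its own (probe set 8006906, chromosome 17), was the one member whose pools did not overlap. Its values were 6.66, 6.67 and 6.79 in large pools, against 6.94, 6.90 and 6.86 in small pools. Every large pool lay below every small pool, but all 6 values, 6.66 to 6.94, were close to the floor of 6.64. The log2 fold change was -0.19 (SE 0.09, interval -0.41 to 0.03), with an adjusted p from limma of 0.35. Non-overlap in this direction was found for 1 of 9 members and for 21.6% of all genes, and in the opposite direction for 0 of 9 members and 5.48% of all genes. The share among the members was thus no higher than that of all genes. After removal of the signal trend, its log2 fold change was -0.03 and the pools overlapped.

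*ERBB3*, the receptor for neuregulins with little kinase activity of its own (probe set 7956120, chromosome 12), stayed below the floor in all 6 pools. It had 5.97, 5.98 and 5.90 in large pools, against 6.23, 5.91 and 6.13 in small pools. The log2 fold change was -0.14 (SE 0.11, interval -0.42 to 0.13, adjusted p = 0.51 from limma), with small pool 6 lying between the large pools. Signals this close to background give no size of change.
*ERBB4*, a neuregulin receptor that also takes HB-EGF, betacellulin and epiregulin (probe set 8058627, chromosome 2), had 6.65, 6.40 and 6.53 in large pools, against 6.68, 6.51 and 6.49 in small pools. Only large pool 2 and small pool 5 exceeded the floor, and the phenotypes were interleaved. The log2 fold change was -0.03 (SE 0.11, interval -0.30 to 0.24, adjusted p = 0.90 from limma), and its sign depended on which pools and which scaling were used.

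*TGFA*, which encodes the EGFR ligand TGF-alpha (probe set 8052872, chromosome 2), was well above the floor in all 6 pools. It had 8.57, 8.51 and 8.70 in large pools, against 8.85, 8.46 and 8.58 in small pools. Small pools 5 and 6 held both the highest and the lowest value, and the 3 large pools lay between them. Means were 8.59 ± 0.10 in large and 8.63 ± 0.20 in small cells (SD, n = 3 pools each), a log2 fold change of -0.03 (SE 0.13, interval -0.36 to 0.29). The adjusted p from limma was 0.90. As a ratio the interval of this fit was 0.781 to 1.22, and larger differences in either direction lay outside it. The interval depended on the variance model. With a variance that follows the signal level it was -0.45 to 0.38 on the log2 scale.

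*EGF*, the ligand that gave the family its name (probe set 8096845, chromosome 4), was also well above the floor everywhere. It had 8.79, 9.09 and 9.05 in large pools, against 8.69, 9.49 and 8.79 in small pools. Small pool 6 was the highest of all, while small pools 5 and 7 lay at the lower end beside large pool 2. The means of 8.98 ± 0.16 in large and 8.99 ± 0.43 in small cells (SD, n = 3 pools each) were nearly equal, with a log2 fold change of -0.01 (SE 0.23, interval -0.57 to 0.55, adjusted p = 0.98 from limma). This near equality depended on small pool 6. Without it the log2 fold change was 0.23, and without small pool 5 it was -0.16. The interval, 0.672 to 1.46 as a ratio, was wider than that of *TGFA*.

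*HBEGF*, a heparin-binding ligand of EGFR and ERBB4 (probe set 8114572, chromosome 5), had the largest log2 fold change among the 9 members and also the largest spread. Its values were 7.72, 7.17 and 7.20 in large pools, against 7.08, 7.18 and 6.39 in small pools. Large pool 2 stood above all others and small pool 7 below all others and below the floor, while the other 4 pools lay between 7.08 and 7.20. The log2 fold change was 0.48 (SE 0.26, interval -0.15 to 1.12, adjusted p = 0.39 from limma), or a ratio of 1.40 with an interval of 0.899 to 2.17. Without small pool 7 it was 0.23 and without large pool 2 it was 0.30, so the size depended on these single pools. Without large pool 3 or small pool 6 the pools of the phenotypes no longer overlapped, and the log2 fold change was 0.58 and 0.63.

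*BTC* (betacellulin, probe set 8101002, chromosome 4) shared the high value of large pool 2. It had 7.65, 7.003 and 7.22 in large pools, against 7.07, 7.29 and 7.24 in small pools. Large pool 2 was the highest and large pool 3 the lowest of the 6, so that the large pools enclosed the small ones. The log2 fold change was 0.09 (SE 0.18, interval -0.35 to 0.54, adjusted p = 0.81 from limma). Without large pool 2 it turned to -0.09.
*EREG* (epiregulin, probe set 8095728, chromosome 4) was below the floor in all 6 pools. Its values were 6.05, 6.06 and 6.02 in large pools, against 6.16, 6.17 and 6.05 in small pools. Small pool 7 lay within the range of the large pools, and the log2 fold change was -0.09 (SE 0.09, interval -0.30 to 0.13, adjusted p = 0.61 from limma).
In the RefSeq annotation of GRCh38.p14, *EPGN*, *EREG*, *AREG* and *BTC* follow one another on chromosome 4 without another protein-coding gene between them, while *EGF* lies elsewhere on this chromosome. Of these neighbors *BTC* was above the floor in 6 of 6 pools, and *EREG* and *EPGN* were above it in 0 of 6 pools.

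**Figure D2:**
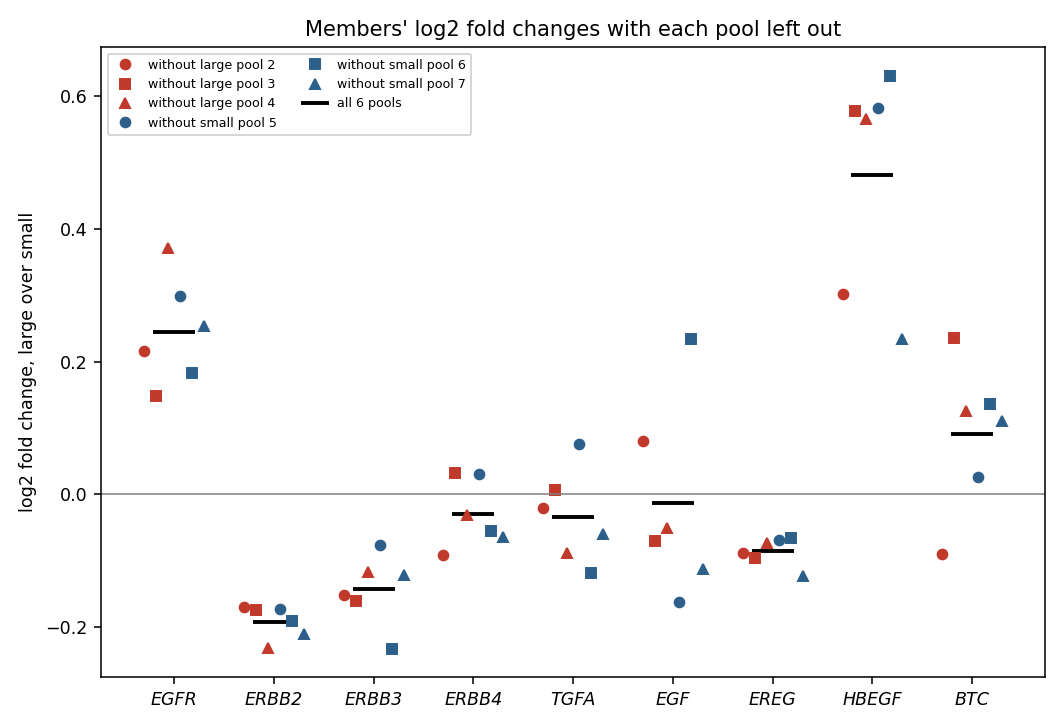
Log2 fold change of large over small cells (vertical axis) for each member with all 6 pools (black line) and with 1 pool left out (red, a large pool; blue, a small pool). *EGFR* and *HBEGF* stay above zero and *ERBB2*, *ERBB3* and *EREG* below it in every case, whereas *ERBB4*, *TGFA*, *EGF* and *BTC* change sign.

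The members differed in how well their pools repeated. The SD between pools of one phenotype, from the fit, was 0.06 for *ERBB2* and 0.05 for *EREG*, which is below that of most genes of similar level (3.77% and 2.27% of those within 0.5 log2 units had a lower one). For *TGFA* it was 0.16, where the median of 1610 genes of similar level was 0.34. *ERBB3* had 0.12 and *ERBB4* 0.11, each against a median of 0.16. *EGFR* (0.18, against a median of 0.18) and *EGF* (0.33, against a median of 0.33) were typical of their level. *BTC* had 0.25 against a median of 0.17, and *HBEGF* had 0.38 against a median of 0.17, higher than 84.3% of genes of similar level. *EREG* lay below the floor and *ERBB2* close to it, where a small spread does not make a difference precise.
No single pool was extreme for all members. Small pool 5 was the highest of the 6 for 4 members, *ERBB2*, *ERBB3*, *ERBB4* and *TGFA*, and large pool 2 for *HBEGF* and *BTC*. Small pool 6 was the highest for *EGF* and *EREG* and large pool 3 for *EGFR*. Large pool 4 and small pool 7 were the highest for 0 members.

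**Figure D3:**
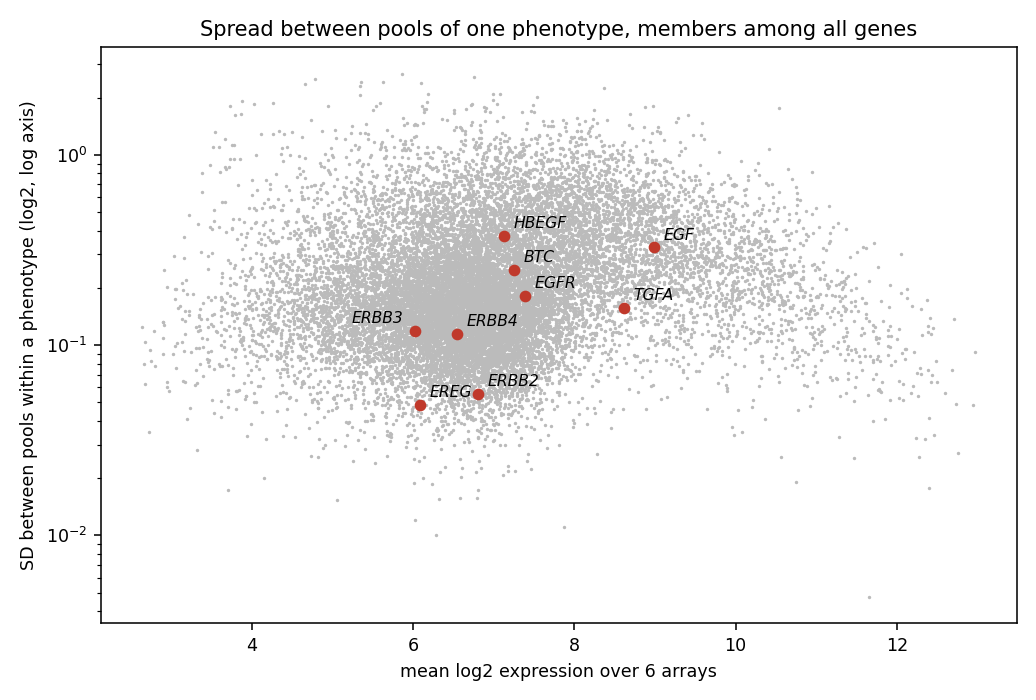
SD between pools of one phenotype (vertical log axis, log2 units) against mean log2 expression over 6 arrays (horizontal axis) for 18404 genes (grey) and the 9 members (red). *ERBB2* and *EREG* lie at the lower edge of the genes of their level and *HBEGF* in the upper part.

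The members also moved with the scaling of the arrays. Over all genes the median was -0.07 after a further quantile normalization, -0.03 with each array centred on its median and 0.00 after removal of the signal trend. *EGFR* had log2 fold changes of 0.25 as deposited and 0.37 without that trend (interval 0.00 to 0.75, adjusted p = 0.58 from limma). For *HBEGF* these were 0.48 and 0.64 (interval 0.04 to 1.23, adjusted p = 0.57 from limma). Without that trend all large pools lay above all small pools for both genes, and both had an unadjusted p under 0.05, but neither passed after adjustment. After quantile normalization or centring the pools of *HBEGF* were also apart, and no member had such a p.

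**Figure D4:**
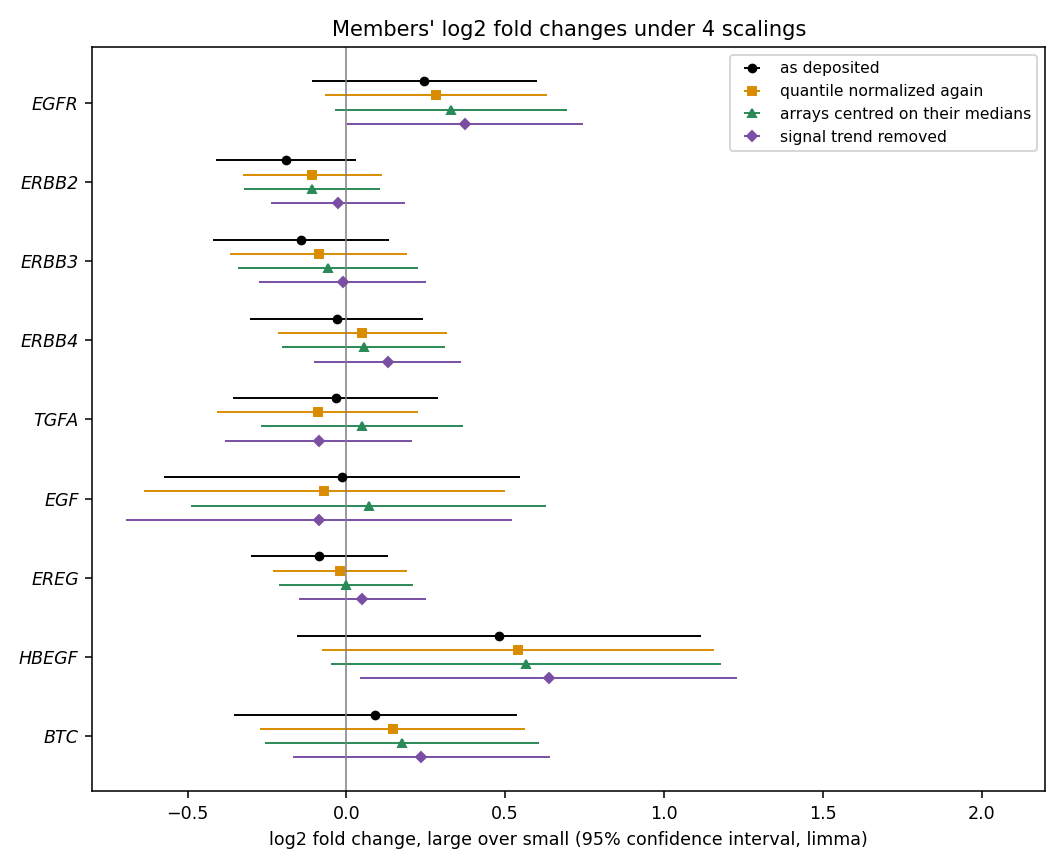
Log2 fold change of large over small cells (horizontal axis) of each member with the 95% confidence interval from limma (3 pools against 3) under 4 scalings of the arrays. All intervals hold zero apart from those of *EGFR* and *HBEGF* after removal of the signal trend.

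The rest of the pathway was described with 6 lists of genes, of which 64 of 72 had a probe set of their own. Counts of higher and lower genes go by the sign of the log2 fold change. By limma 0 of 64 passed the thresholds. At an unadjusted p under 0.05 there were 5 higher and 5 lower genes in large cells, beside 4.33% higher and 10.5% lower over all genes. Non-overlapping pools were found for 4 genes in the higher and 10 in the lower direction, beside 5.48% and 21.6% over all genes. The medians of the lists ran from -0.18 to -0.08 on the log2 scale, beside -0.11 over all genes.

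Among the 5 other ligands, 1 was higher and 4 were lower (median -0.17). *NRG4*, a ligand of ERBB4, had 4.87, 4.74 and 4.78 in large pools, against 4.15, 4.44 and 4.36 in small pools. All large pools lay above all small pools, but all 6 values were far below the floor, so that its difference of 0.48 on the log2 scale (limma, adjusted p = 0.32) gives no size of change. *NRG2*, which binds ERBB3 and ERBB4, had a log2 fold change of -0.29 with pools that did not overlap (adjusted p = 0.34), which was -0.17 without large pool 3 and -0.17 after removal of the signal trend. *NRG3*, a ligand of ERBB4, had -0.17 (adjusted p = 0.46), and -0.089 without large pool 4.
Of 8 genes of ligand shedding, 2 were higher and 6 lower (median -0.11). The inactive rhomboids *RHBDF1* and *RHBDF2*, which bring the sheddase ADAM17 to the cell surface, both had non-overlapping pools. *RHBDF1* had 7.28, 7.26 and 7.54 in large pools, against 7.64, 7.78 and 7.57 in small pools (log2 fold change -0.30, adjusted p = 0.34 from limma), and after removal of the signal trend the difference was -0.19. For *RHBDF2* the log2 fold change was -0.23 at values close to the floor (adjusted p = 0.35), and it was -0.14 after centring and -0.067 after removal of the signal trend. *ADAM9*, a metalloproteinase that can cut HB-EGF, had 9.68, 10.06 and 10.21 in large pools, against 9.94, 8.34 and 9.69 in small pools. Only small pool 6 was low, and without it the difference of 0.66 on the log2 scale (limma, adjusted p = 0.44) was 0.17.

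Of 26 listed adaptors and relay kinases only 18 had a probe set of their own, while the other lists were complete. Within these 18, 7 were higher and 11 lower (median -0.08), and the unmeasured genes of the relay are not covered. *STAT3*, a transcription factor activated downstream of EGFR and of cytokine receptors, had the largest difference of all 64 genes. Its values were 9.28, 9.55 and 9.57 in large pools, against 7.49, 8.35 and 8.29 in small pools. The lowest large pool, 9.28, was above the highest small pool, 8.35, and all values were above the floor. The log2 fold change was 1.43 (SE 0.25, interval 0.82 to 2.03), with an unadjusted p of 0.0012 and an adjusted p of 0.32 from limma, and it was 1.15 to 1.58 with any 1 pool left out. It exceeded the fold threshold but did not pass after adjustment.
*PTPN11*, the phosphatase SHP2 that carries the signal from adaptors to RAS, had 10.58, 10.13 and 10.47 in large pools, against 9.37, 9.87 and 9.71 in small pools. The pools did not overlap and the log2 fold change was 0.74 (interval 0.30 to 1.18, adjusted p = 0.32 from limma). *SOS2*, an exchange factor for RAS, had the opposite sign, with 8.24, 8.51 and 8.37 in large pools, against 9.09, 8.67 and 8.93 in small pools. Its log2 fold change was -0.52 (interval -0.88 to -0.17, adjusted p = 0.32). *MAP2K1*, the kinase upstream of ERK, named after its values were seen, was the other gene of this list with an unadjusted p under 0.05, and its log2 fold change was -0.47.

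Of 12 feedback inhibitors, whose log2 fold changes ran from -0.35 to 0.30, 4 were higher and 8 lower (median -0.12), 0 had an unadjusted p under 0.05 by limma and 0 had non-overlapping pools. *LRIG1*, which promotes degradation of the receptors, had a log2 fold change of -0.17, and the Sprouty genes *SPRY4* and *SPRY1*, inhibitors of the RAS pathway, had -0.14 and -0.11 (adjusted p of 0.485 to 0.557 from limma).
Among 12 genes of receptor ubiquitination and endosomal sorting, 5 were higher and 7 lower (median -0.13). *EPS15*, an adaptor of clathrin-coated pits, had 9.09, 9.06 and 8.89 in large pools, against 8.60, 7.33 and 8.54 in small pools. The pools did not overlap, but small pool 6 lay far below the other 5 pools, and the difference of 0.86 on the log2 scale (limma, adjusted p = 0.34) was 0.45 without it. *RAB5A*, the GTPase of early endosomes, had 10.94, 10.88 and 10.66 in large pools, against 10.09, 10.22 and 10.66 in small pools (log2 fold change 0.50, adjusted p = 0.32), and the lowest large and the highest small pool met at 10.66. *USP8*, which removes ubiquitin from EGFR on endosomes, had 9.35, 9.66 and 9.61 in large pools, against 10.10, 10.50 and 9.99 in small pools. Every large pool was below every small pool, with a log2 fold change of -0.65 (interval -1.07 to -0.24, adjusted p = 0.32).

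Of 9 target genes of the ERK pathway, 2 were higher and 7 lower (median -0.18). *EGR1*, an immediate early transcription factor, had 7.72, 7.39 and 7.86 in large pools, against 8.01, 7.93 and 8.21 in small pools. The pools did not overlap, and the log2 fold change was -0.39 (interval -0.77 to -0.02, adjusted p = 0.33 from limma). *IER3*, another early response gene, had 7.55, 7.15 and 7.67 in large pools, against 7.79, 7.99 and 7.76 in small pools (log2 fold change -0.39, adjusted p = 0.34). Without large pool 3, the lowest for both genes, the log2 fold change was -0.26 for *EGR1* and -0.24 for *IER3*. *ETV4*, an ETS factor, was below the floor in all pools, with a log2 fold change of -0.18. With the deposited scaling 77.8% of this list were lower, a share over only 9 genes, beside 66.4% of all genes. The share over all genes moved with the scaling, and that of the list was not computed under the others.

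**Figure D5:**
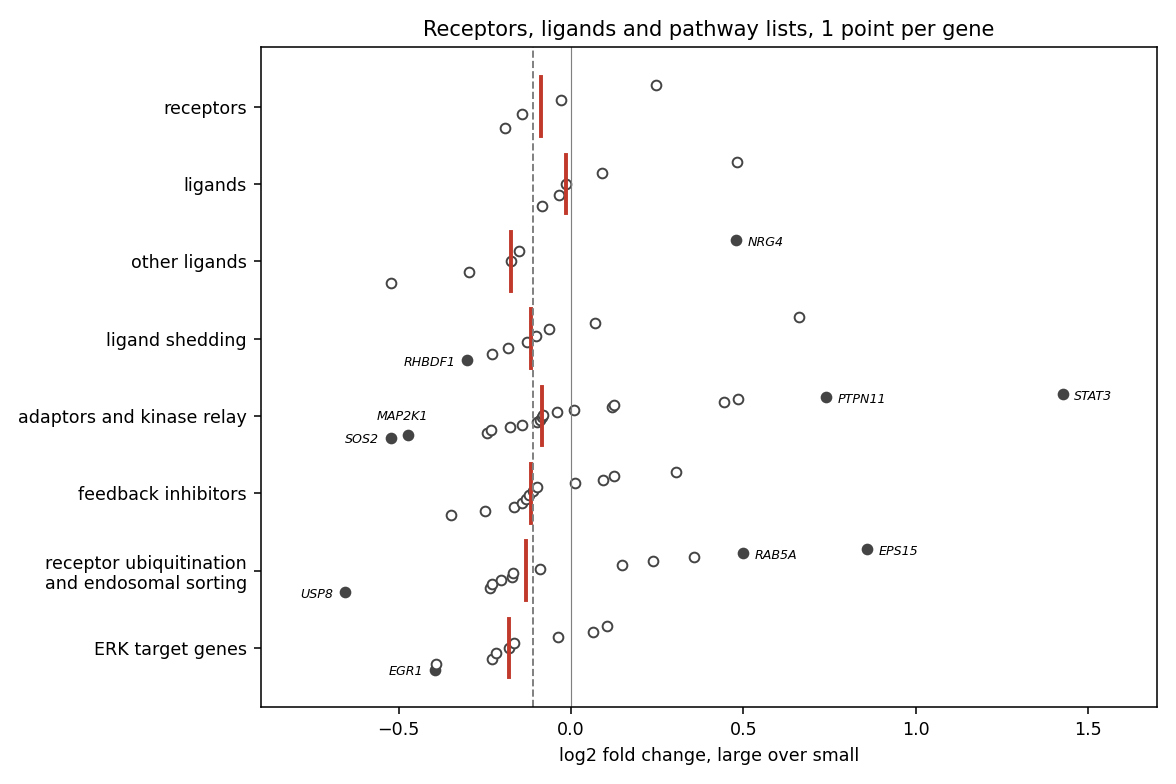
Log2 fold change of large over small cells (horizontal axis), 1 point per gene, for receptors, ligands and 6 pathway lists; red lines are list medians and the dashed line is the median of all genes, -0.11. Filled points have an unadjusted p under 0.05 by limma; 0 of the receptors and ligands and 10 of the 64 pathway genes are filled, *STAT3* lying farthest from zero.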

How the data were processed

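Large and small pools were grouped by the submitters' labels, 3 arrays each. The deposited values are log2 signals, 1 per probe set and array, made by the authors with robust multi-array averaging, which subtracts background, equalizes the distributions of the arrays and fits probes by median polish. As software the methods give affy in R, and Affymetrix Expression Console is listed in the submitters' notes. The chip definition file is not given. For arrays their number limits the precision.

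Of 32321 probe sets, 19158 carried 1 symbol in the platform annotation, and the brightest per gene gave 18404 genes. Large minus small was fitted on all of them with limma 3.58.1 in R 4.3.3, without covariates or filter and with Benjamini-Hochberg adjustment. The thresholds of the methods were used, but not their filter, whose limits are not stated. The fit was tested on simulated data with independent genes and planted shifts larger than any member's difference. That test therefore does not cover differences of the size seen for the members. The members, the pathway and marker lists and the tests were chosen with earlier results of these data known. All members are named, and from each pathway list the 3 genes with the smallest unadjusted p; exceptions are stated. Chromosomes and neighbors were taken from RefSeq. Alternatives covered scaling, genes tested, probe set choice, variance model, array weights, thresholds and each pool left out. RT-qPCR, array-CGH and time lapse data were not analysed here. The paper's RT-qPCR of picked MUG-Chor1 cells included *TGFA*, with high expression reported and no fold change given.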

Additional observations from a re-analysis of the deposited data

How the results depend on the processing

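With 3 pools per phenotype only large differences could pass, and signals near the floor give no size of change. By limma the count of members past the thresholds was 0 under every alternative run, 0 at an unadjusted p under 0.05 among them. At that p there was *EGFR* without large pool 4, and *EGFR* and *HBEGF* after removal of the signal trend. Over all genes the count was 0 except for 2 (*SNORD59B* and *ZNF814*, named after their values were seen) among the 2062 genes above the floor in at least 2 arrays and with an interquartile range above 0.5, where 0 members remained for testing, and 2731 at an unadjusted p under 0.05. That threshold gave 1 gene for other ligands, ligand shedding and ERK targets each, 4 for adaptors and kinases and 3 for endosomal sorting. Members with non-overlapping pools numbered 1 as deposited and 2 under each of the other scalings, and 1 to 3 with a pool left out.

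Of 124 alternative values of the members' log2 fold changes 13 had the opposite sign. Those from changes of the genes tested, the probe set choice or the variance model equalled the deposited value, so their sign could not change. *ERBB4* had 0.050 after quantile normalization, 0.054 after centring and 0.13 after removal of the signal trend. After centring *TGFA* had 0.050 and *EGF* 0.071. After removal of the signal trend *EREG* had 0.050, and of the pathway genes named *SPRY1* had 0.053 and *SPRY4* 0.021. Over the other scalings some differences shrank without changing sign, with values nearest to zero of -0.0013 for *LRIG1*, -0.029 for *NRG3*, -0.037 for *ETV4* and -0.067 for *RHBDF2*, each after removal of the signal trend. Among the members, *ERBB3* had -0.012 and *ERBB2* -0.027 after that removal. With a pool left out *LRIG1* ran from -0.27 to -0.10, *SPRY4* from -0.23 to -0.074 and *SPRY1* from -0.16 to -0.072. With a pool left out the members' values ran from -0.091 to 0.032 for *ERBB4*, from -0.12 to 0.076 for *TGFA*, from -0.16 to 0.23 for *EGF* and from -0.090 to 0.24 for *BTC*. They ran from 0.15 to 0.37 for *EGFR*, from 0.23 to 0.63 for *HBEGF*, from -0.23 to -0.17 for *ERBB2*, from -0.23 to -0.076 for *ERBB3* and from -0.12 to -0.065 for *EREG*. The cause of these changes was not tested. Adjusted p of members over all alternatives was 0.328 to 0.997 from limma. The balance of all genes at an unadjusted p under 0.05 moved with the scaling. With the deposited values 797 were higher in large cells and 1934 lower. A further quantile normalization gave 834 higher and 1086 lower, centring 1207 higher and 718 lower, and removal of the signal trend 1130 higher and 462 lower. No paired analysis was possible because pools of the phenotypes share no replicate number.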
